A study of Homo sapiens with 2 samples.

Results

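Open chromatin was examined at 10 genes used to describe basal and stem-like states of breast epithelium: TP63, SOX9, BMI1, EGFR, ALDH1A1, ALDH1A3, NT5E, CD24, PROM1 and PROCR. They are 10 of the 19970 protein-coding genes annotated on chromosomes 1 to 22 and X in GENCODE release 44 for the human genome build hg38. Every peak that overlapped the body of one of these genes, or lay within 50 kb of any of its annotated transcript starts, was counted as a peak of that gene. A peak overlapping the 4000 bp on either side of an annotated start was called a promoter peak, and the others were called distal. The peaks came from ATAC-seq, in which the transposase Tn5 inserts sequencing adapters where DNA is accessible, in SUM159, an established cell line of mesenchymal character from a triple-negative breast cancer. Cells of both libraries had received the lentiviral vector pLV-KRAB, which expresses dCas9-KRAB, a cleavage-dead Cas9 joined to the KRAB repressor domain. The No gRNA library was the empty vector control, with 0 targeting guides, and the All gRNA library carried 4 that direct the repressor to the promoter of ZEB1. With 1 library a group there was no test between conditions, and the intervals given here cover counting error in these 2 libraries only.

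Basal cells form the outer layer of the mammary epithelium and contain its myoepithelial cells and part of its stem cells. The transcription factor p63 maintains basal identity, EGFR signalling supports basal growth, and SOX9 marks progenitor states. BMI1, aldehyde dehydrogenases and the surface proteins CD24, CD133, CD73 and the endothelial protein C receptor have been used to enrich for stem-like cells or tumor-initiating cells. Accessible promoters and intronic or intergenic enhancers are where transcription factors reach the DNA of such genes, although an open promoter alone does not measure transcription.

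The sequences below are hg38, plus strand, written from left to right along the chromosome and centered on the peak summit, the base with the most overlapping reads. They show regions present in only 1 library with a -log10 q of at least 10, followed by promoters of PROCR and TP63. Capitals mark CAGGTG or CAGCTG, which are E-boxes, TGAGTCA, an AP-1 site, and ATTGTT, a SOX-type site, each on either strand, so that TGACTCA is an AP-1 site read from the other strand. Annotated untranslated bases were left out, which shortened both promoters.
EGFR intron, No gRNA only, chr7:55081978-55082178: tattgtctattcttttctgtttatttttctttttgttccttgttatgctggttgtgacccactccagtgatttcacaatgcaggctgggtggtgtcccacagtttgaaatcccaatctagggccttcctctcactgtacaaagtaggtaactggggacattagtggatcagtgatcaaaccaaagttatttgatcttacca
NT5E upstream, No gRNA only, chr6:85422077-85422277: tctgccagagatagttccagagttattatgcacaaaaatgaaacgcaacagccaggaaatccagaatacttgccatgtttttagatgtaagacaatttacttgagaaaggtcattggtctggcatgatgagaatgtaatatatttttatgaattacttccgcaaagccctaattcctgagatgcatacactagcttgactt
ALDH1A1 upstream, No gRNA only, chr9:73119076-73119276: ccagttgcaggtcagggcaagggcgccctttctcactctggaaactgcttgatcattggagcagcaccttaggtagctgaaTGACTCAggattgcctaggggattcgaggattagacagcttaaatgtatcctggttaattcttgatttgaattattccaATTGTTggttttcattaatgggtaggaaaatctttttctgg
NT5E downstream, All gRNA only, chr6:85516318-85516518: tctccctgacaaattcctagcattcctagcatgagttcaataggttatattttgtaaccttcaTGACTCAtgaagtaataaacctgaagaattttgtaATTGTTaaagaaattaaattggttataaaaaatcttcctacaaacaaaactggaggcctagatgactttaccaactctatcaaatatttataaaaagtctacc
PROCR promoter, both libraries, chr20:35171953-35172071: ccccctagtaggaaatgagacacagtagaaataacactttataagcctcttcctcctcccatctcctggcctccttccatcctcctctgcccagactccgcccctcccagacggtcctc
TP63 promoter, both libraries, chr3:189631223-189631388: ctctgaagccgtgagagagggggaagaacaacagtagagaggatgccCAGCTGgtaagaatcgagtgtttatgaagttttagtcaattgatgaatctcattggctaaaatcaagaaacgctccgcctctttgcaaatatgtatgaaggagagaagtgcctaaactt

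The deposited lists held 74757 peaks in No gRNA and 75217 in All gRNA. The height of a peak is given as its summit pileup, the whole number of extended reads over the summit, which was recovered from the deposited fold enrichment and p. The depth of All gRNA was 0.743 times that of No gRNA, and ratios of pileups were scaled for it. At the promoter of the targeted gene ZEB1, peaks with pileups of 25 and 27 lay 8 bp and 366 bp from an annotated start in No gRNA. Neither overlapped a peak in All gRNA. Near other ZEB1 starts promoter peaks were present with the guides. An All gRNA peak with a pileup of 10, 1276 bp from a start, had no No gRNA partner. A shared peak 517 bp from a start had pileups of 8 and 9 and a ratio of 1.51 (95% interval 0.518 to 4.51). Promoters of the 6 mesenchymal marker genes looked for had peaks in both lists. Of the 6 epithelial junction genes, EPCAM and CLDN7 had promoter peaks in both lists, CDH1 and CLDN4 had them without an All gRNA partner, with pileups of 7 and 12, the CDH1 peak at an internal start 63307 bp from the main one, and CLDN3 and GRHL2 had none. Of the 7 luminal and hormone receptor genes 5 were open in both, the receptor genes ESR1 and PGR only in the control library, with pileups of 8 and 9, the PGR peak lying 2051 bp from another start and 80394 bp from the main one. A KRT8 pair at another start, 22533 bp from the main one, had pileups of 66 and 16 and a ratio of 0.326 (95% interval 0.176 to 0.570). Of the 4 KRT8 promoter pairs it was the only 1 at least 2-fold apart with an interval that left out 1. Promoter peaks of KRT8 numbered 5 in No gRNA and 6 in All gRNA, and the strongest in All gRNA had a pileup of 33. The leukocyte genes PTPRC and CD3E had none, whereas the endothelial genes PECAM1 and CDH5 had peaks in both.

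A promoter peak was present in both libraries at 9 of the 10 genes, and PROM1 had none in either. The 10 genes together held 78 peaks in No gRNA, of which 18 were promoter peaks, and 76 in All gRNA, of which 16 were promoter peaks. Over all protein-coding genes, 71.3% were open at a promoter in both lists, 2.92% only without guides and 2.56% only with them, against 9, 0 and 0 of these 10. In such bulk libraries, fewer cells with a site open and less openness per cell cannot be told apart. The number of peaks was higher in No gRNA for 5 genes and higher in All gRNA for 4, and it was 9 in both libraries for NT5E. In No gRNA 40 of the 78 peaks had their summit in an intron of the gene itself and 17 lay between genes, and in All gRNA these were 36 and 18 of 76. The summit was nearer to a start of the member gene than to that of any other protein-coding gene for 64 peaks in No gRNA and 60 in All gRNA.

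**Figure D1:**
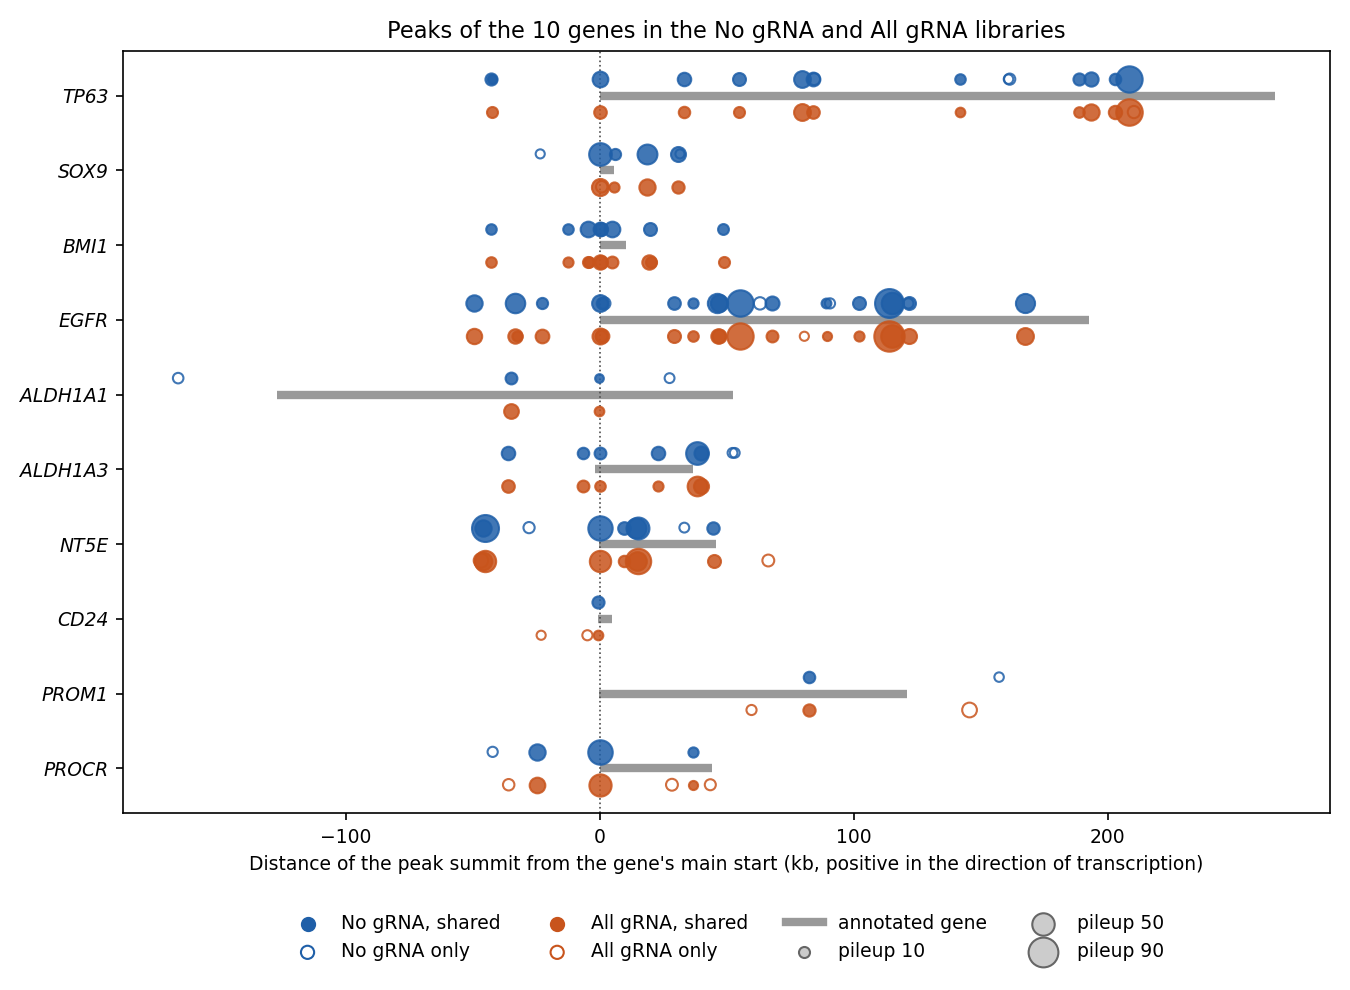
Peaks of the 10 genes by the distance of their summit from the main transcript start in kb, positive in the direction of transcription, with the annotated gene as a grey bar. Blue circles above each bar are No gRNA and orange circles below it are All gRNA, filled where the peak overlaps one of the other list and open where it does not, and the circle area grows with the summit pileup at the All gRNA depth. Most circles face a partner across the bar, and the highest, in introns of EGFR and TP63 and upstream of NT5E, are filled in both libraries.

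TP63 (ENSG00000073282.14, chr3:189631389-189897276, plus strand) encodes p63 and is transcribed from an upstream promoter, which gives the long TA forms, and from an internal promoter, which gives the shorter ΔN forms that predominate in basal epithelium. The upstream promoter was open in both libraries. Its peak at chr3:189630847-189631521 had a pileup of 31 and a -log10 q of 25.3 in No gRNA, and the overlapping All gRNA peak had 14 and 9.94. The depth-scaled ratio of All gRNA over No gRNA pileups came to 0.608 with a 95% interval of 0.299 to 1.18, so that the difference was within counting error. At the internal starts, at chr3:189789659-189789801, neither library had a peak over the starts themselves. In No gRNA 2 small peaks followed downstream, at chr3:189792273-189792472 and chr3:189792636-189792925, with pileups of 9 and 14, -log10 q of 4.18 and 9.84, and summits 2530 bp and 3001 bp from the nearest start. All gRNA had no peak there, the nearest lying 18794 bp from the first of them. Scaled to the All gRNA depth these pileups were 6.69 and 10.4, and the lowest pileup that could be called over that background was 5. Before scaling, the 95% intervals of the 2 pileups were 4.12 to 17.1 and 7.65 to 23.5. Because the heights came from the library that called the peaks, they cannot tell a loss in All gRNA from counting error.

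The TP63 gene also held 10 No gRNA and 10 All gRNA peaks in its introns outside the promoter windows. The highest lay 208 kb downstream of the main start at chr3:189839653-189840109, with pileups of 94 and 71 and a ratio of 1.02 (0.736 to 1.40). This site was equally high in both libraries within counting error. The intronic peak 79.4 kb from the start had pileups of 36 and 27 and a ratio of 1.01 (0.589 to 1.71). Over the 10 TP63 pairs the ratio ranged from 0.608 to 1.44 with a median of 0.802, and every interval included 1. The peaks in 1 library only were, besides those near the internal starts, a No gRNA peak 84.4 kb and an All gRNA peak 210 kb from the main start, with pileups of 16 and 13.

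SOX9 (ENSG00000125398.8, chr17:72121020-72126416, plus strand) encodes a transcription factor of progenitor cells and of cartilage. Its promoter was among the most open of the 10 in No gRNA and was lower in All gRNA. The peak, whose summit lay 5 bp from the start, had a pileup of 69 in the control library and of 28 with the guides, with -log10 q of 58.9 and 24.2. The ratio was 0.546 and its interval, 0.339 to 0.859, lay below 1. In All gRNA a further small promoter peak with a pileup of 11 lay in the gene 717 bp from the start and overlapped no No gRNA peak. The 3 shared peaks downstream of SOX9, 5.79 kb, 18.5 kb and 30.7 kb from the start, lay in introns of the antisense transcript SOX9-AS1. That at 18.5 kb was the strongest, with pileups of 52 and 25 and a ratio of 0.647 (0.385 to 1.06). All 4 SOX9 pairs had a ratio below 1, with a median of 0.636, and the intervals of the 3 distal pairs included 1. Small No gRNA peaks with a pileup of 8 stood 23.5 kb upstream and 31.5 kb downstream with no All gRNA partner.

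BMI1 (ENSG00000168283.14, chr10:22321099-22331484, plus strand) encodes a Polycomb group protein of the repressive complex that modifies histone H2A. Its main promoter had pileups of 23 and 19, with a ratio of 1.11 (0.572 to 2.13). The strongest No gRNA promoter peak was at internal starts 4.77 kb downstream, chr10:22325653-22326063, with pileups of 31 and 12 and a ratio of 0.521 whose interval, 0.244 to 1.04, reached just past 1. The main start and the internal starts of BMI1 thus gave ratios on either side of 1, each within counting error. The strongest distal No gRNA peak, 4.65 kb upstream, had its summit 1 bp from the start of COMMD3, a neighboring gene that shares the readthrough transcript COMMD3-BMI1. It overlapped 2 All gRNA peaks and was therefore outside the pairs. Its pileup was 31, and the stronger All gRNA peak had 10, a ratio of 0.434 (0.190 to 0.909) when overlapping peaks were merged. In All gRNA the strongest distal peak lay 19.5 kb downstream, nearest to SPAG6, with a pileup of 19, and BMI1 had no peak in 1 library only.

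EGFR (ENSG00000146648.21, chr7:55019017-55211628, plus strand) encodes the epidermal growth factor receptor and held the most peaks of the 10 genes, 21 in No gRNA and 20 in All gRNA. The promoter peak at chr7:55018918-55019307 had pileups of 36 and 24 and a ratio of 0.897 (0.512 to 1.55). Its strongest peaks lay in introns and not at the promoter. That 55.1 kb from the start, chr7:55073980-55074443, had pileups of 95 and 70 and a ratio of 0.992 (0.718 to 1.36). That 114 kb from the start, chr7:55132700-55133492, had pileups of 114 and 94 and a ratio of 1.11 (0.835 to 1.47). These high intronic sites of EGFR differed by less than their counting error. The interval lay below 1 for an intronic pair 46.3 kb from the start, at chr7:55065133-55065511. It had pileups of 49 and 19 and a ratio of 0.522 (0.290 to 0.903), short of 2-fold. Its neighbor 46.9 kb from the start had pileups of 38 and 18 and a ratio of 0.637 (0.342 to 1.14). The intergenic site 33.3 kb upstream had a pileup of 50 in No gRNA, and the stronger of 2 overlapping All gRNA peaks had 19, a ratio of 0.511 (0.285 to 0.883) after merging. The 16 EGFR pairs had a median ratio of 0.945, with 9 below 1.

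EGFR also held 4 No gRNA peaks and 2 All gRNA peaks with no partner in the other list. The strongest of them, the No gRNA peak at chr7:55081932-55082221, lay in an intron 63.1 kb from the main start and had a pileup of 18 and a -log10 q of 10.6. Its sequence, given above, held none of the letters searched. Promoter peaks in 1 library only were small, with pileups of 17 and 11 in No gRNA, the latter 87 bp from the internal start of EGFR-205, and 16 in All gRNA.

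**Figure D2:**
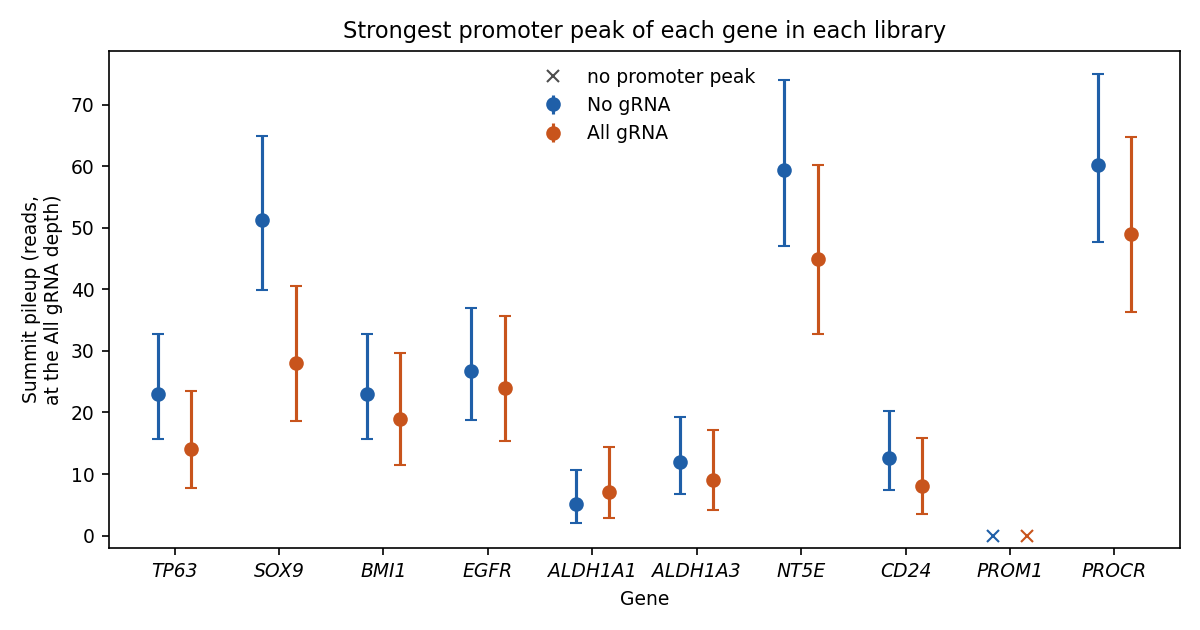
Strongest promoter peak of each gene by -log10 q in No gRNA (blue) and All gRNA (orange), as the summit pileup in reads at the All gRNA depth, with exact 95% Poisson intervals as bars and crosses where a list had no promoter peak. The intervals overlap for each gene with peaks, PROCR, NT5E and SOX9 are highest in No gRNA, and at BMI1 and CD24 the points of the libraries are different sites.

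ALDH1A1 (ENSG00000165092.13, chr9:72900671-73080442, minus strand) encodes a retinaldehyde dehydrogenase that contributes to the ALDEFLUOR activity used to sort stem-like breast cells. Its promoter was barely open, with a peak pileup of 7 in both libraries and -log10 q of 3.86 and 4.43, and the ratio of 1.35 had an interval of 0.403 to 4.50. The strongest ALDH1A1 peak in both libraries lay in an intron of longer transcripts, 35.0 kb upstream of the main start, with pileups of 16 and 20 and a ratio of 1.68 (0.828 to 3.47). Both shared sites of ALDH1A1 therefore had ratios above 1, within wide intervals. A No gRNA peak at chr9:73119018-73119315, with a pileup of 12 and a -log10 q of 10.0, had no All gRNA partner. It lay between genes, 38734 bp from the nearest ALDH1A1 start and 32689 bp from that of ANXA1. A further No gRNA peak with a pileup of 10 lay in an intron 27.4 kb downstream of the main start.

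ALDH1A3 (ENSG00000184254.17, chr15:100877714-100916626, plus strand) encodes the isoform that accounts for much of the aldehyde dehydrogenase activity of many breast cancer lines. The promoter peak had pileups of 16 and 9, with -log10 q of 10.8 and 7.42 and a ratio of 0.757 (0.295 to 1.82). Its strongest distal peak in both libraries, chr15:100918082-100918565, was in an exon of ALDH1A3-AS1 and 1070 bp from the start of LRRK1, with pileups of 69 and 38 and a ratio of 0.741 (0.485 to 1.12). The intronic site 22.9 kb from the ALDH1A3 start had pileups of 22 and 8. Its ratio, 0.489, was the lowest of all pairs of the 10 genes, and its interval of 0.188 to 1.14 included 1. A pair of No gRNA peaks with pileups of 10 each, 52.2 kb and 53.1 kb from the main start in an intron of LRRK1, had no All gRNA partner.

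NT5E (ENSG00000135318.12, chr6:85449584-85495791, plus strand) encodes CD73, the surface enzyme that converts AMP to adenosine. The promoter and the sites around it were strongly open in both libraries. The promoter peak at chr6:85449889-85450719 had pileups of 80 and 45, -log10 q of 67.7 and 36.7 and a ratio of 0.757 (0.513 to 1.10). The intergenic site 45.1 kb upstream, chr6:85404324-85405189, had pileups of 99 and 45, and its ratio of 0.612 had an interval below 1, from 0.420 to 0.879. Its neighbor 46.2 kb upstream had pileups of 34 and 30 and a ratio of 1.19 (0.702 to 2.00). In All gRNA the strongest distal peak was instead intronic, 15.0 kb from the start, with pileups of 64 and 65 and a ratio of 1.37 (0.953 to 1.96). The strongest NT5E sites thus had ratios on both sides of 1.

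Peaks of NT5E in 1 library only were 2 in each library. The No gRNA peak 27.9 kb upstream, chr6:85422017-85422296, had a pileup of 14 and a -log10 q of 11.7. The All gRNA peak 66.3 kb downstream of the main start, chr6:85516239-85516535, had a pileup of 12 and a -log10 q of 11.1 and lay in an intron of SNX14. In the sequences above, the All gRNA peak held TGACTCA and ATTGTT, the latter starting 2 bp from the summit, and the No gRNA peak held neither. The other No gRNA peak was 2066 bp from the internal start of NT5E-205, with a pileup of 10, and the other All gRNA peak was 46.9 kb upstream, with a pileup of 19.

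CD24 (ENSG00000272398.6, chr6:106969831-106975627, minus strand) encodes a small glycosylated surface protein that is low on the CD44-high cells described as tumor-initiating. It has near-identical copies elsewhere in the genome, so that reads in its exons may be split or lost in mapping and its pileups are uncertain. The shared promoter peak at chr6:106975323-106975654 had pileups of 17 and 7, with -log10 q of 11.7 and 3.94 and a ratio of 0.554 (0.194 to 1.41). In All gRNA 2 further small peaks, with pileups of 8 and 6, lay 4033 bp and 22247 bp from the nearest start and had no No gRNA partner. The first of them overlapped the promoter window and, with a -log10 q of 4.99, was the strongest All gRNA promoter peak of CD24. No gRNA had no other CD24 peak.

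PROM1 (ENSG00000007062.12, chr4:15963076-16084378, minus strand) encodes CD133. None of its 22 annotated transcripts had a promoter peak in either library. The shared peak of PROM1 lay in an intron 82.3 kb from the main start, chr4:16001552-16001947, with pileups of 15 and 13 and a ratio of 1.17 (0.511 to 2.63). The strongest peak counted to PROM1 in All gRNA, chr4:15938302-15938590, had a pileup of 20, a -log10 q of 19.2 and no No gRNA partner. It lay in an exon of FGFBP1, 320 bp from a start of that gene and 33525 bp from the nearest start of PROM1. The other All gRNA peak in 1 library only was in an exon of PROM1 with a pileup of 8, and the No gRNA one was intergenic with a pileup of 9.

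PROCR (ENSG00000101000.6, chr20:35172072-35216240, plus strand) encodes the endothelial protein C receptor, a marker of multipotent mammary stem cells in mice. Its promoter had the highest -log10 q of the 10 genes in both libraries, 82.2 and 46.4. The peak at chr20:35171796-35172288 had pileups of 81 and 49 and a ratio of 0.814 (0.559 to 1.17). Among all protein-coding genes the PROCR promoter stood at percentile 76.4 in No gRNA and 73.6 in All gRNA by its strongest -log10 q. The strongest distal peak, 24.7 kb upstream and 85 bp from the start of EDEM2, had pileups of 34 and 23 and a ratio of 0.910 (0.512 to 1.59). An All gRNA peak in an intron of the long PROCR transcript, 2837 bp from the start of MMP24OS, had a pileup of 12, a -log10 q of 11.4 and no No gRNA partner. Other peaks in 1 library only were a No gRNA peak with a pileup of 11 and All gRNA peaks with pileups of 11 and 10, and the 3 PROCR pairs all had ratios below 1, from 0.734 to 0.910.

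The 10 genes had 56 pairs of peaks that overlapped one to one. The median ratio was 0.867, or -0.21 on the log2 scale, with 34 pairs below 1 and 22 above, against a median of 0.928 and 58.1% below 1 over 48041 pairs in all. None of the 56 pairs was at least 2-fold apart with an interval that left out 1, where 3.27% of all pairs were lower and 2.44% higher in All gRNA by that rule. The interval lay below 1 for 3 of the 56, or 5.36%, at the SOX9 promoter, the intron of EGFR and the upstream site of NT5E, and for 8.85% of all pairs. It lay above 1 for 0 of the 56 and for 3.42% of all pairs.

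**Figure D3:**
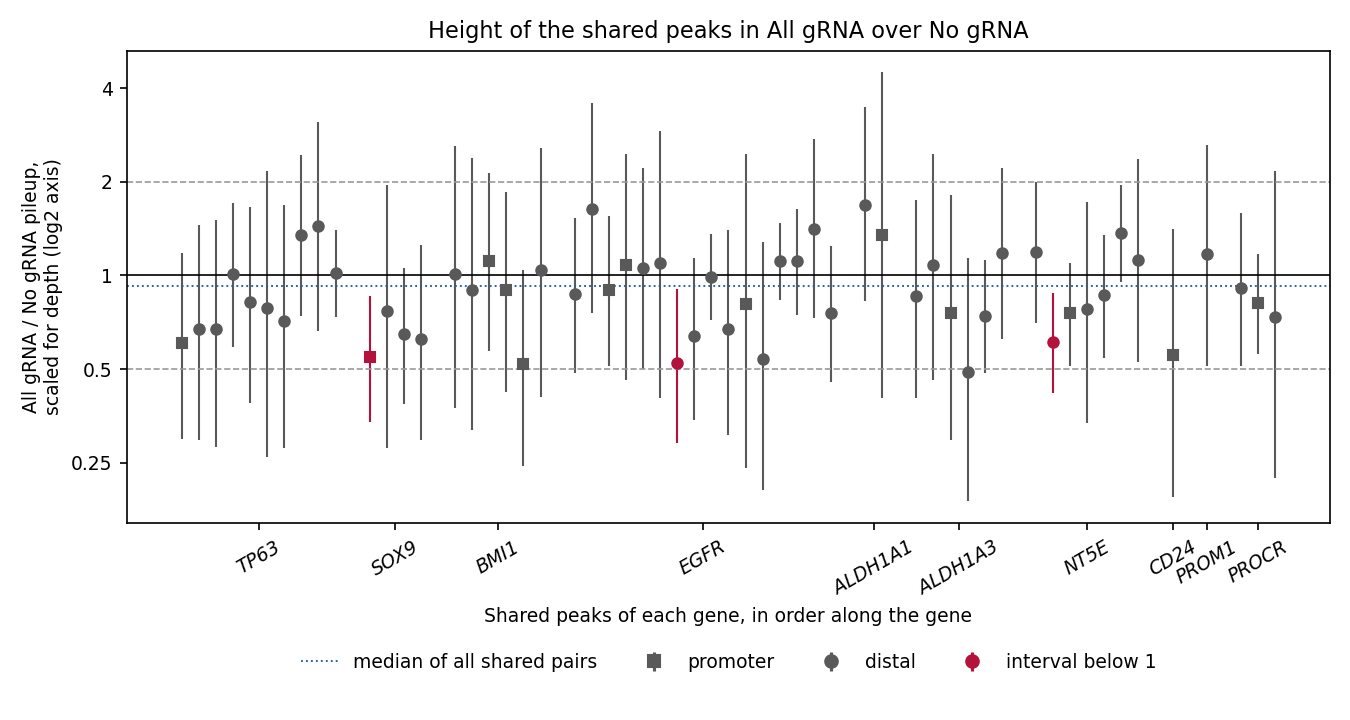
Ratio of the summit pileup in All gRNA to that in No gRNA, scaled for depth, on a log2 axis, for the 56 shared peaks in order along each gene. Squares are promoter peaks, circles distal peaks, bars exact 95% intervals for counting error, dashed lines mark 2-fold and the dotted line is the median of all shared pairs, 0.928. The 3 red points, at SOX9, EGFR and NT5E, have intervals below 1, and no interval lies above 1.

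Promoter pairs had a median ratio of 0.807, with 10 of 13 below 1 (76.9%), and distal pairs 0.897, with 24 of 43 below 1 (55.8%). Over all protein-coding genes, with a pair counted once for each gene it was assigned to, promoter pairs had a median of 0.875 with 68.7% below 1, and distal pairs 0.897 with 61.9% below 1. In a split by the mean of the depth-scaled pileups, set after the values were seen, the 21 pairs of the 10 genes at or above 20 reads had a median of 0.871, and so did the 21816 such pairs in all, with 14 of the 21 and 69.0% of all below 1. Among lower peaks the median was 0.856 for 35 pairs of the 10 genes and 1.01 for all 26225, with 20 of the 35 and 49.0% of all below 1. By gene, all pairs lay below 1 for SOX9, CD24 and PROCR and above 1 for ALDH1A1 and PROM1, which had between 1 and 4 pairs each.

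**Figure D4:**
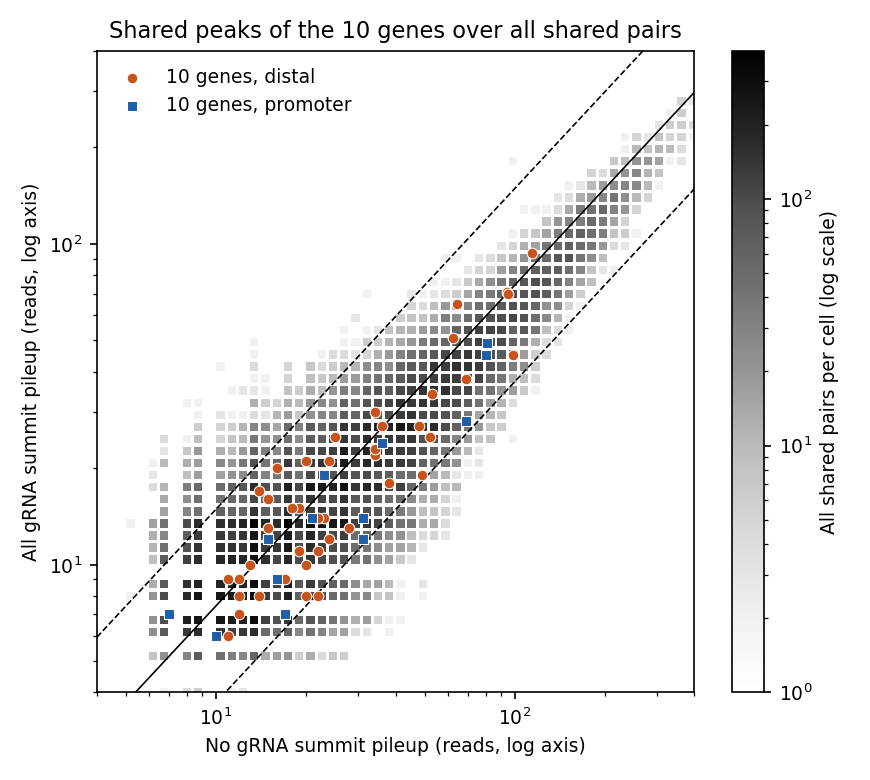
Summit pileups of shared peaks in No gRNA (x axis) and All gRNA (y axis), in reads on log axes, for the 10 genes as orange circles (distal) and blue squares (promoter) over the density of all 48041 shared pairs in grey. The solid line is equal height after scaling for depth, the dashed lines are 2-fold on either side, and points of the 10 genes lie within the grey cloud, 1 of them past the lower dashed line.

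Peaks found in 1 library only had lower -log10 q than shared ones, with medians of 6.97 and 11.7 for promoter peaks and 7.56 and 17.6 for distal peaks in No gRNA, and of 4.99 and 7.42 and of 7.33 and 11.4 in All gRNA. Of the No gRNA promoter peaks 5 of 18 had no All gRNA overlap, 27.8% with an exact binomial 95% interval of 9.69 to 53.5%, against 16.9% for promoter peaks of all protein-coding genes. Of the All gRNA promoter peaks 3 of 16 had no No gRNA overlap, 18.8% (4.05 to 45.6%), against 11.6%. For distal peaks 12 of 60 in No gRNA had no partner (interval 10.8 to 32.3%), against 23.3%, and 10 of 60 in All gRNA, 16.7% (8.29 to 28.5%), against 20.6%. All 4 backgrounds lay within these intervals. The intervals treat peaks as independent although many belong to the same gene, so they are not a test of the 10 genes. The background shares count a peak once for each gene it was assigned to. Peaks of -log10 q of at least 10 were in 1 library only for 3 of 54 in No gRNA, 5.56% against 7.83% of such peaks of all genes, and for 3 of 37 in All gRNA, 8.11% against 3.38%. The 6 were the sites described at EGFR, NT5E, ALDH1A1, PROM1 and PROCR, all of them distal. For each of the 30 peaks in 1 library only, the pileup scaled to the other library's depth was above the lowest that could be called over the same background there, by as little as 0.945 reads, and 7 of them lay within 1000 bp of a peak of the other list. These pileups came from the library that called the peak and carry counting error. The comparison therefore cannot tell lost openness from depth or counting error.

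Near the summits of the 10 genes' peaks, CAGGTG, the E-box to which ZEB1 binds, was present within 100 bp of 3 of 78 summits in No gRNA and 6 of 76 in All gRNA, or 3.85% and 7.89%. Over all peaks on the same chromosomes it was present at 11.6% and 13.1%. In No gRNA the 3 were distal peaks of ALDH1A3, NT5E and PROCR. In All gRNA the 6 were distal peaks of SOX9, BMI1, ALDH1A3 and NT5E and a promoter peak of EGFR with no No gRNA partner. CAGCTG was found at 11 and 12 of the summits, 14.1% and 15.8% against 12.4% and 12.0%. It lay at promoter peaks of TP63, ALDH1A1 and EGFR, among others, in both libraries. TGAGTCA was found at 21 and 19, 26.9% and 25.0% against 23.5% and 24.3%, and ATTGTT at 14 and 11, 17.9% and 14.5% against 9.85% and 10.0%. Overlapping summits of the libraries share these letters, and the counts are small.

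Of 76 genes in related lists, 64 were open at a promoter in both libraries, 0 only in the control, 2 only with the guides and 10 in neither, and none of these genes is one of the 10. Over all protein-coding genes 71.3% were open in both, 2.92% only in the control and 2.56% only with the guides. Among the EGFR family and its ligands 9 of 10 were open in both, and the ligand gene EPGN had an All gRNA peak only, with a pileup of 7. Both other p53 family genes were open in both, with a median ratio of 0.817 at their strongest pairs. Of the basal keratin, adhesion and myoepithelial genes 11 of 13 were open in both. MYLK, the myosin light chain kinase gene, had a pair 458 bp from an internal start with pileups of 14 and 27 and a ratio of 2.60 (1.31 to 5.35). It was 1 of 5 MYLK promoter pairs, and the strongest of the 5 had a ratio of 0.718.

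Of the mammary stem and progenitor genes 13 of 17 were open in both. CD44, the hyaluronan receptor gene used with CD24 to sort stem-like breast cancer cells, had a promoter pair 35 bp from a start with pileups of 30 and 9 and a ratio of 0.404 (0.169 to 0.872). It was the only pair called of 3 at CD44. The gene had 3 promoter peaks in No gRNA and 5 in All gRNA, and the strongest in All gRNA had a pileup of 16. Of the other aldehyde dehydrogenases 6 of 7 were open in both, and ALDH1A2 had a pair at an internal start with pileups of 34 and 11 and a ratio of 0.435 (0.199 to 0.880). That start was 433309 bp from the main one. The strongest of the 3 ALDH1A2 promoter pairs had a ratio of 1.11. The partners of prominin, CD24 and PROCR were open in both for 4 of 6, and PROC, which encodes protein C, had an All gRNA peak only, with a pileup of 9. The adenosine pathway genes were open in both for 5 of 7, with a median ratio of 0.725 over 3 genes, and the BMI1 partners of Polycomb complex 1 for 14 of 14, with a median of 0.855 over 13. Of the 103 promoter pairs of the related lists, 2 were at least 2-fold lower and 1 was at least 2-fold higher by the rule above. That rule called 3.27% of all pairs, promoter and distal together, lower and 2.44% higher. The share among promoter pairs alone was not counted, so no conclusion on the related lists is drawn from these calls.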

How the data were processed

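ATAC-seq was performed on 1 library of each group. Per the study's methods, the authors trimmed reads with fastp, mapped them with bowtie2 to hg38, removed mitochondrial reads, excluded regions and duplicates with samtools, and called peaks with MACS2. There was 1 list per library, and its values solve as those of a run without a control, which the methods do not state. The deposited lists give each peak's position, a score (-log10 q multiplied by 10, not used), a fold enrichment over local background (a ratio), and -log10 p and -log10 q. The stated extension was 150 bp, whereas the shortest deposited peak was 200 bp in both lists.

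Pileup and background were solved from the deposited fold and -log10 p, as MACS2 computes them, with a background of at least 0.4. Whole-number pileups came out for 100.0% of deposited peaks, and 100.0% of 19930 pileups were recovered on simulated data. Library totals were not given. The lowest backgrounds, 0.6518 and 0.4844, set the depth ratio of 0.743. With windows of 150 or 200 bp they correspond to 1.17e+07 or 8.8e+06 read ends in No gRNA and 8.72e+06 or 6.54e+06 in All gRNA. Peaks sharing 1 bp were called shared. For pairs overlapping one to one, ratios of pileups had exact conditional Clopper-Pearson 95% intervals, and a pair was called at 2-fold with an interval leaving out 1. A summit is the highest point of its peak, and the intervals do not cover that choice or library-to-library variation. Genes were taken from GENCODE 44, and 0 peaks ran beyond an hg38 chromosome. Peaks on chromosomes other than 1 to 22 and X were left out.

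All 10 genes were described, with the strongest promoter and distal peak in each list, every peak in 1 library only with a -log10 q of at least 10, and every called pair; other peaks were added to account for the members. Genes of the related and marker lists were named where their promoter had a peak in 1 list only or a called pair, and junction and leukocyte markers as a check of the line. Sequence was printed for 6 of these peaks, and that of 2 others is not reported here. The FGFBP1, NT5E and EGFR sites were passed over because they had at most 49 bp free of annotated untranslated sequence. The genes and lists were chosen with earlier results of these data known. Analyses used Python 3.11.15, NumPy 2.4.6, SciPy 1.17.1 and matplotlib 3.10.9.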

Additional observations from a re-analysis of the deposited data

How the results depend on the processing

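The counts and ratios were recomputed under 12 alternative settings, which gave 64 values. Of these 40 changed little (counts by at most 1.5 times), 24 moved further and 0 reversed, although a single count cannot reverse. The order of the libraries did change for peaks without an overlap. As reported, these numbered 5 in No gRNA and 3 in All gRNA at promoters, and 12 and 10 at distal sites. With promoters of 1000 bp, promoter peaks without an overlap numbered 1 in No gRNA and 2 in All gRNA, the peaks near the internal TP63 starts counting as distal. With 10000 bp promoter peaks numbered 27 in No gRNA and 26 in All gRNA. With -log10 q of at least 5 there were 10 All gRNA promoter peaks, 1 of them without an overlap, and 6 All gRNA distal peaks without one. With at least 10 there were 8 No gRNA and 4 All gRNA promoter peaks, 0 without an overlap in either list, 33 All gRNA distal peaks, and 3 distal peaks without an overlap in each list. Requiring 50% overlap of both peaks left 5 All gRNA promoter peaks without a partner. With a window of 10 kb distal peaks numbered 35 in No gRNA, 4 without an overlap, and 37 in All gRNA, 5 without, and with 100 kb No gRNA had 91, 19 without. Counting a distal peak only where the nearest protein-coding start was the gene's own left 7 and 5 without an overlap. Scaling by the median ratio of all pairs gave 1 interval above 1, at the intronic NT5E site 15.0 kb from the start, and merging overlapping peaks gave 5 intervals below 1 and 1 pair called at 2-fold, the site at the COMMD3 start. The cause was not tested, beyond the fewer or more peaks that each choice counts.

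The median ratio of the 10 genes' pairs was 0.867 as reported, 0.934 with scaling by the median, 0.860 after merging and 0.808 from the deposited fold values, against 0.886 for all pairs by fold values. No paired analysis was possible because there was 1 library per group. With 1 library a group, differences between cultures or preparations cannot be told apart from the guides, and the weakest pairs, with pileups of 6 to 10, carry intervals several-fold wide.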
